A study of Mus musculus with 43 samples.

Results

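The acute response to UVB, the part of ultraviolet light behind sunburn, was compared between the back skin of NZM and WT mice. The quantity was the interaction, the change from unexposed to exposed skin in NZM minus the same change in WT, on log2(normalized count + 1). Genes entered the fit when 4 or more of the 43 libraries reached a normalized count of 10, which kept 19170 of 23256 genes. The interaction rested on 19 of the 43 libraries. A positive value means that a gene rose more, or fell less, in NZM than in WT.

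All libraries were poly-A RNA of back skin from female mice aged 10 to 13 weeks, and exposed skin was taken 24 hours after the last UVB dose. NZM is the lupus-prone line NZM2328 of the series title, and the labels do not name the strain behind WT. Unexposed NZM skin gave 5 libraries and unexposed WT skin 4. Acute exposure was 1 dose of 300 mJ/cm2 and gave 5 libraries in each strain. For side by side values, skin of iNZM mice was used, with 4 unexposed and 5 acutely exposed libraries. The labels do not define iNZM, a name used in the field for NZM2328 mice lacking the type I interferon receptor. Skin exposed to 5 daily doses of 100 mJ/cm2 (chronic UVB) was also used, with 5 libraries in NZM and 5 in WT. The labels do not say that each library came from a separate animal, so p-values measure the spread between libraries.

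UVB damages DNA in keratinocytes, the main cells of the epidermis, and activates p53, the regulator of the DNA damage response, and NF-kB, the transcription factor family of inflammation. Keratinocytes then release cytokines and chemokines that draw neutrophils and monocytes, and lower the genes of terminal differentiation while the epidermis repairs. In lupus-prone skin, type I interferon is known to raise sensitivity to ultraviolet light.

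Depth ran from 18.8 to 29.55 M reads in genes over the 19 libraries, with a median of 25.63 M, and basal keratinocyte genes were present in all of them, at sums of 0.188 to 0.858 M normalized counts. Skeletal muscle genes, of the muscle sheet under the skin, summed to at least 0.517 M normalized counts in every library, so the samples held more than skin layers. Libraries that stood apart were present on both sides of the contrast. Unexposed WT libraries 44 and 45 had fibroblast and matrix sums of 0.3 and 0.402 M, against 0.106 and 0.142 M in unexposed WT 41 and 43. Their mitochondrial transcripts summed to 0.802 and 0.827 M, against 2.41 and 2.08 M. Their skeletal muscle genes summed to 0.975 and 1.08 M, against 2.46 and 1.84 M. Unexposed NZM libraries had 0.054 to 0.105 M of matrix genes, 1.23 to 1.95 M of mitochondrial transcripts and 0.823 to 1.89 M of muscle genes. Which WT pair is less typical was not tested, and 41 and 43 were not left out as a pair. NZM acute library 5 had 0.65 M normalized counts of hair follicle genes, against 0.0016 to 0.00286 M in the other NZM acute libraries. WT acute 15, the library of lowest depth, had 2.88 M of mitochondrial transcripts, against 1.05 to 1.79 M in the other WT acute libraries. Its fibroblast and matrix sum was 0.069 M, against 0.114 to 0.252 M. Leaving it out was among the single-library settings given below. Values without WT 44 and 45 or without NZM acute 5 are given below where they bear on a result, a choice made after seeing the data. Without WT 44 and 45 only unexposed WT 41 and 43 remain, so a call can be lost there at a nearly unchanged value.

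The interaction passed the test (limma-trend, Benjamini-Hochberg adjusted p under 0.05) for 22 of 19170 genes, 0.115%. Of these, 10 (0.0522%) were higher and 12 (0.0626%) lower in NZM than in WT. The responses within each strain passed the test for far more genes, 4097 (21.4%) in NZM and 4169 (21.7%) in WT. An interaction has a larger SE than a single response, so these counts are not of like power. Without UVB, 2868 genes (15.0%) differed between the strains, and after it 2499 (13.0%) did, 1525 higher and 974 lower in NZM. The median interaction over all genes was 0.02. At an unadjusted p under 0.05 the interaction held 1947 genes (10.2%), the background for the unadjusted counts of list genes below. The count of 22 became 9 without WT 44 and 45, all of them among the 22, and 19 without NZM acute 5, of which 17 were among the 22. Leaving out unexposed WT 45 alone gave 13 calls and leaving out WT acute 52 alone gave 41. On the recovered whole reads edgeR called 9 genes and DESeq2 207, with 9 and 16 of the 22 among them.

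**Figure D1:**
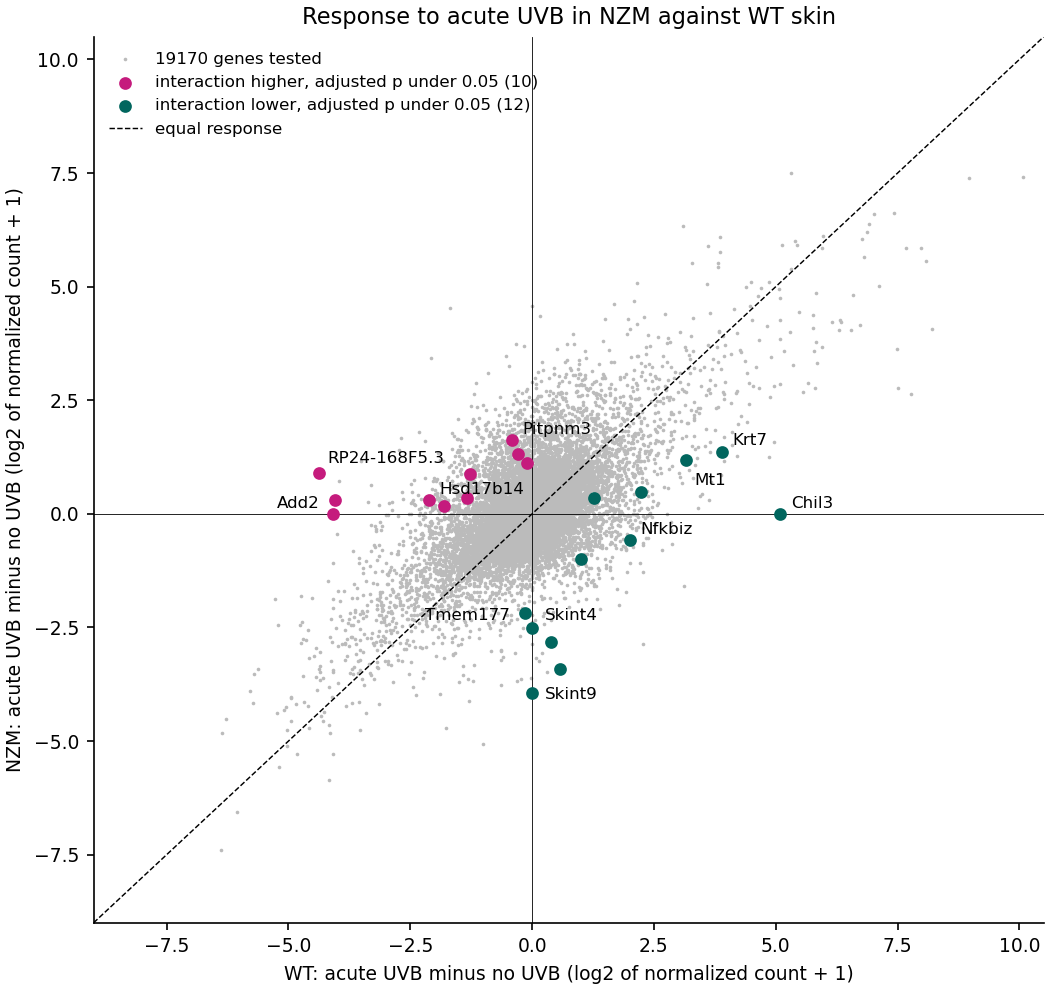
Each point is 1 of 19170 genes, with its WT response to acute UVB on the x axis and its NZM response on the y axis, both as log2 of normalized count + 1. Coloured points are the 10 genes with a higher and the 12 with a lower interaction, and they lie off the dashed line of equal responses in both directions, several of them near 1 of the axes, such as Chil3, Skint4, Skint9 and Tmem177.

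Among the 22 genes, the response itself passed the test in WT alone for 9 and in NZM alone for 8. It passed in both strains in 1 direction for 3 (Cd44, Krt7 and Mt1) and in opposite directions for 2 (Qpct and Slc30a2). The strains differed without UVB alone in 9, after it alone in 8 and in both states in 5. The size of the strain difference was smaller after UVB for 12 of the 22 and larger for 10. In 7 genes 1 strain stayed under 10 normalized counts in every library, WT in 4 and NZM in 3, so that their interaction is nearly the response of the other strain alone.

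**Figure D2:**
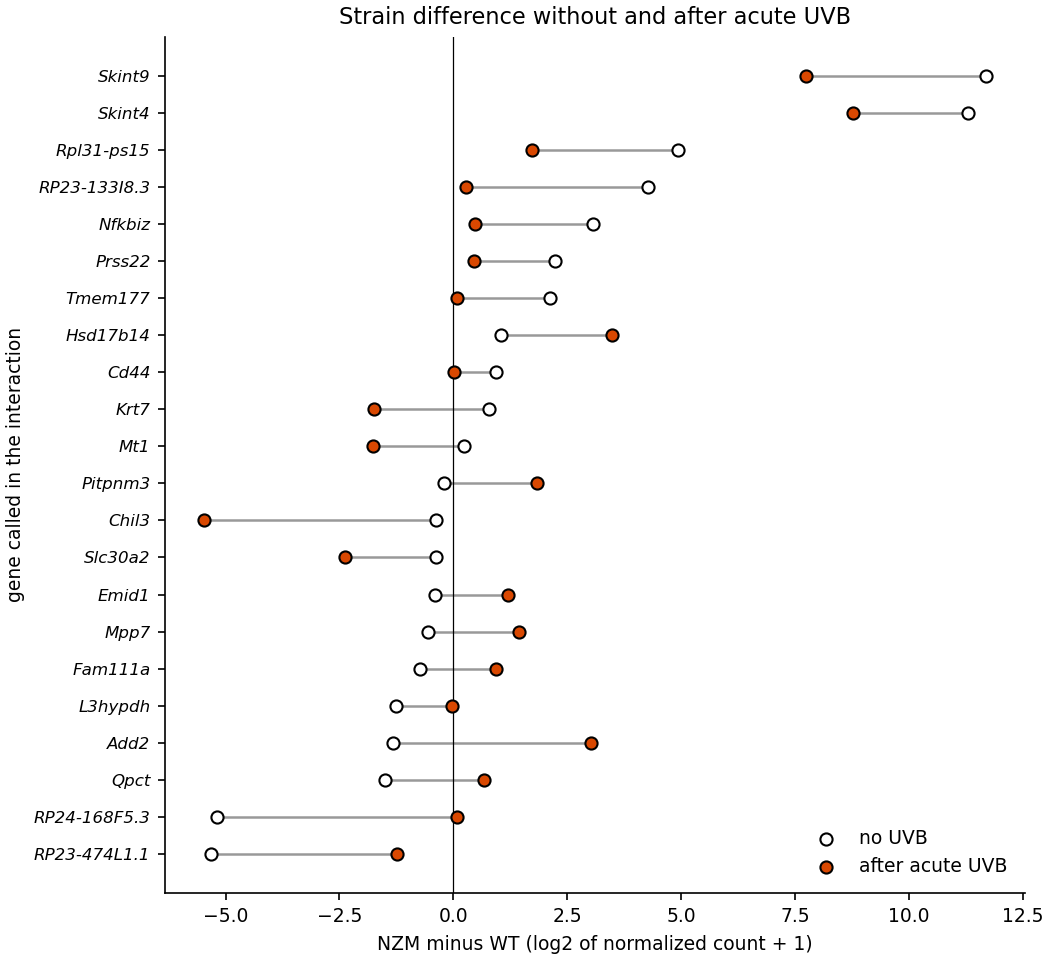
Difference between NZM and WT (x axis, log2 of normalized count + 1) for each of the 22 called genes, without UVB (open points) and after acute UVB (filled points). The filled point lies nearer to 0 for 12 genes, such as Tmem177, Cd44 and Nfkbiz, and farther from 0 for 10, such as Hsd17b14, Mt1 and Chil3.

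Nfkbiz encodes IkB-zeta, a nuclear cofactor of NF-kB that keratinocytes make in response to interleukin-1 and interleukin-17 (chr16:55811375-55838899 in GRCm38, minus strand). From the lowest library to the highest, normalized counts in NZM were 1353, 1686, 2346, 2558 and 3353 without UVB and 763, 1557, 1592, 1647 and 2001 after it. In WT they were 186, 204, 329.6 and 341 without UVB and 686.5, 1055, 1057, 1154 and 1342 after it. Every unexposed NZM library lay above every unexposed WT library, and after UVB the strains overlapped. The gene rose by 2.01 ± 0.32 (SE) on the log2 scale in WT (adjusted p = 1.37e-05), while the NZM response was -0.58 ± 0.31 (adjusted p = 0.186). The interaction was -2.59 ± 0.45 (adjusted p = 0.00441), and -2.98 without WT 44 and 45 (adjusted p = 0.0063). The call ended with only the samples numbered under 46 (adjusted p = 0.0681). That setting keeps all unexposed libraries, but of the exposed ones only NZM acute 1, 3 and 5 and WT acute 13 and 15.

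Of 19 NF-kB subunits and feedback regulators, Nfkbiz was the 1 that passed the test (background 0.115%), where edgeR called 1 and DESeq2 3, all lower. The list's median interaction was -0.50 (-0.81 without WT 44 and 45), against 0.02 over all genes. Of the 19 values 17 lay below 0, and 7 had an unadjusted p under 0.05 (background 10.2%), all negative. Nfkbia, the classical inhibitor IkB-alpha, had values of 8536, 9897, 11910, 13580 and 15250 in unexposed and 4100, 5772, 6182, 6600 and 7076 in exposed NZM skin, where every exposed library lay below every unexposed one. In WT it had 5574, 5819, 5942 and 11220 without UVB and 8003, 8219, 9474, 10530 and 10610 after it, which overlapped. Its interaction of -1.43 ± 0.38 missed the threshold (adjusted p = 0.122). Zc3h12a, the ribonuclease Regnase-1 that degrades inflammatory mRNAs, was at 1701 to 3412 in unexposed NZM skin against 161 to 271 in unexposed WT skin. The log2 strain difference was 3.5 ± 0.39 without UVB and 1.53 ± 0.36 after it, and the interaction was -1.97 ± 0.53 (adjusted p = 0.134).

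Neutrophil-attracting chemokines and growth factors had the lowest limma median of the 41 gene lists, -1.95, and 9 of their 10 tested genes lay below 0. None passed the test by limma or edgeR, and DESeq2 called 2, both lower. In limma 3 had an unadjusted p under 0.05 (background 10.2%). Without WT 44 and 45 the median was -2.10, and in edgeR -2.99. Cxcl1 and Cxcl2, which encode ligands of the neutrophil receptor CXCR2, lie next to each other on chromosome 5. Their promoters are shown because both genes were close to 0 in unexposed WT skin and present in unexposed NZM skin. They are RefSeq sequences of 300 bases on GRCm38, plus strand, from 250 bases before the transcription start, chr5:90890995-90891294 for Cxcl1 and chr5:90903649-90903948 for Cxcl2. Capitals mark the letters that match an NF-kB motif (GGGA, any 2 bases and TTCC) on either strand, where 2 matches overlap in each promoter.
Cxcl1: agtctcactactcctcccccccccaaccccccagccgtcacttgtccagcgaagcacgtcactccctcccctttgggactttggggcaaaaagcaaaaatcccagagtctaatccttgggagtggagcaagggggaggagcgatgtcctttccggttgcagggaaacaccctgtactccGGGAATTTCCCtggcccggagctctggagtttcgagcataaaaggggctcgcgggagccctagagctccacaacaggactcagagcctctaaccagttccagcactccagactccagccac
Cxcl2: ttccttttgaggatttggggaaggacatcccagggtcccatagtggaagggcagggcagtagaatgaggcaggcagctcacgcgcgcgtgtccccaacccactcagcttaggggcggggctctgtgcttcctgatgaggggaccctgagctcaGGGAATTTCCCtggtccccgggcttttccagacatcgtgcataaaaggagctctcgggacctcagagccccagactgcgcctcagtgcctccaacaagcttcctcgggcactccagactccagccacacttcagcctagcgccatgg
The motif run begins 71 bases before the start in Cxcl1 and 97 bases before it in Cxcl2, and its letters are the same in both. The motif occurs in 1.47% of 32851 mouse promoters of that length. Cxcl1 and Cxcl2 were picked after their values were seen, so their matches are no test of a part of NF-kB. Of the 22 called genes, 13 have 16 promoters in the table, and Nfkbiz is not among the 13. None of the 16 promoters holds that motif or CACGTG (E-box, 7.15%). Nor does any hold GAAA, any 2 bases and GAAA (the interferon-stimulated response element, in 3.44% of all promoters) or TGANTCA (AP-1, 7.81%). At these shares 16 promoters would hold few matches, so their absence says little. Of the uncalled genes also scanned, Nfkbia has 1 NF-kB match and Zc3h12a 0.

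Cxcl1 stood at 45.2, 69.4, 72.7, 120.2 and 164 normalized counts in unexposed NZM skin and at 2.32, 3.66, 3.97 and 4.95 in unexposed WT skin. After UVB it reached 592, 967, 1855, 1889 and 3088 in NZM and 759.9, 1208, 1336, 1355 and 2851 in WT. The strains were thus apart before the dose and overlapped after it. Its log2 response was 4.06 ± 0.71 in NZM and 8.21 ± 0.75 in WT, and the interaction of -4.14 ± 1.03 missed the threshold (adjusted p = 0.0894). Cxcl2 had 2.44, 5.83, 13.6, 16.1 and 16.2 in unexposed and 7.03, 51.1, 62.5, 104.5 and 327 in exposed NZM skin. In WT it was at 0 in all 4 unexposed libraries, where 0 reads allow up to 2.38 to 3.48 normalized counts (3 reads, counting error only), and at 71.8, 90.4, 350.3, 377 and 570.2 after UVB. Its interaction was -5.14 ± 1.34 (adjusted p = 0.115), with the exposed strains overlapping. With unexposed WT at 0 that value depends on the 1 added before the log, and over the alternative settings it ran from -7.9 to -2.77. For Csf3, the growth factor of neutrophil production, 8 of 9 unexposed libraries were at 0, and exposed skin had 14.1, 14.6, 74.7, 149.7 and 171 in NZM and 137, 199.9, 204, 425 and 591 in WT. Its interaction was -2.52 ± 1.28 (adjusted p = 0.508).

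Neutrophil markers gave no call. Over 19 neutrophil markers the median interaction was -0.34 (-1.15 without WT 44 and 45, and 0.48 in edgeR). No gene passed by limma, edgeR or DESeq2, and 2 had an unadjusted p under 0.05 (background 10.2%), both negative. Cxcr2, the receptor for these chemokines, rose by 2.67 ± 0.83 in NZM and by 5.55 ± 0.88 in WT on the log2 scale (interaction -2.88 ± 1.21, adjusted p = 0.407). S100a9, an alarmin of neutrophils and stressed keratinocytes, was at 154 to 642 in unexposed NZM against 9.16 to 40.6 in unexposed WT, and at 2717 to 14790 against 1312 to 3409 after UVB. Its interaction was -2.06 ± 1.22 (adjusted p = 0.57). Il1b, the inflammatory cytokine interleukin-1 beta, had 69.5, 150.4, 584, 632 and 1468 in exposed NZM skin and 328, 647, 694, 1334 and 1507 in exposed WT skin, which overlapped. Without UVB it had 3.48, 5.93, 30.2 and 59.6 in WT, where 44 and 45 were the higher libraries, and the interaction of -2.78 ± 1.25 (adjusted p = 0.441) became -4.26 without them (adjusted p = 0.415). In bulk skin, fewer cells of a type and less RNA per cell cannot be told apart.

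**Figure D3:**
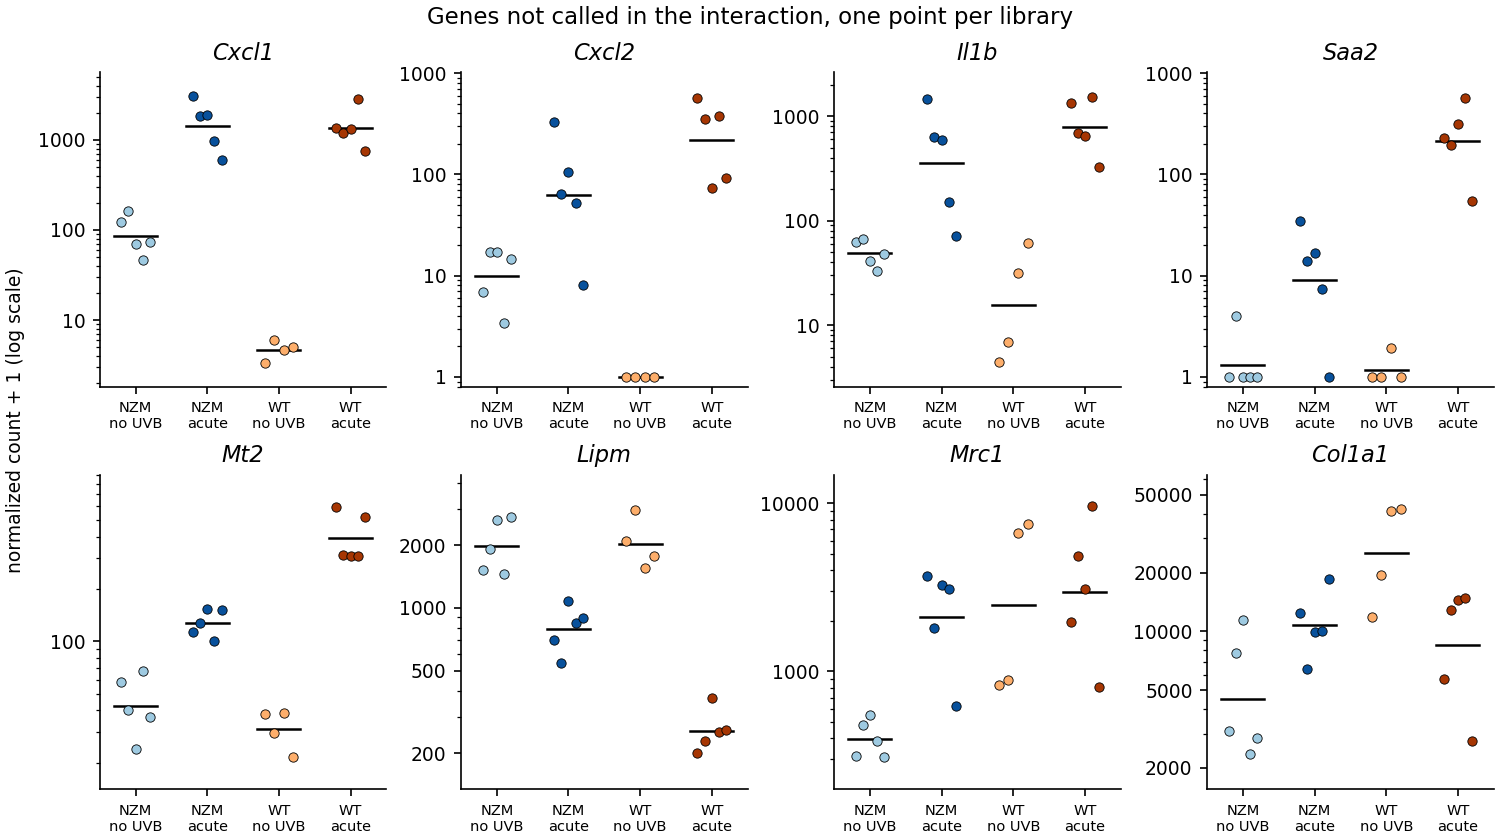
Normalized counts + 1 on a log scale for 8 genes that did not pass the interaction test, 1 point per library, with the mean of log2 values as a bar. Cxcl1 and Cxcl2 start apart and end together, Saa2, Mt2 and Lipm start together and end apart, and Mrc1 and Col1a1 show unexposed WT libraries split into a lower and a higher pair.

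Mt1 and Slc30a2, both of metal handling, rose in WT beyond their NZM response. Mt1 encodes metallothionein 1, a small protein that binds zinc and copper and scavenges radicals (chr8:94179082-94180327). It stood at 2668, 2720, 2966, 3316 and 4861 in unexposed and 5813, 7022, 7938, 7987 and 8013 in exposed NZM skin, with no overlap. In WT it stood at 1848, 2125, 3200 and 4525 without UVB and at 18310, 21110, 24970, 30670 and 30800 after it. The unexposed strains overlapped, whereas every exposed WT library was above every exposed NZM library. Mt1 rose by 1.18 ± 0.29 in NZM and by 3.17 ± 0.31 in WT on the log2 scale, an interaction of -1.99 ± 0.42 (adjusted p = 0.03). Without WT 44 and 45 it was -1.81 (adjusted p = 0.23), and edgeR gave -1.96 (adjusted p = 0.0647).

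The neighbouring gene Mt2, of metallothionein 2, had 99.4, 112.5, 126, 149.9 and 152.5 in exposed NZM and 307, 309, 313, 517 and 592 in exposed WT skin, again without overlap. Its interaction of -2.07 ± 0.49 missed the threshold (adjusted p = 0.0658). Mt1 and Mt2 are similar in sequence, and how the authors counted reads that fit both is not given in the sources used here. Slc30a2, which encodes the zinc transporter ZnT2, went in opposite directions (chr4:134343181-134354484). In NZM it had 69.7, 70, 79.3, 83.2 and 102 without UVB and 33.7, 34.4, 42.5, 43.2 and 44.8 after it. In WT it had 58.4, 93.8, 101 and 214 without UVB, with library 41 the highest, and 164, 167, 202, 225 and 322.5 after it. It fell by 1.0 ± 0.29 in NZM and rose by 1.0 ± 0.31 in WT (interaction -2.0 ± 0.42, adjusted p = 0.03). The call ended without WT 44 and 45 (-1.9, adjusted p = 0.219) and in edgeR (-1.92, adjusted p = 0.0647).

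Of 19 NRF2 and oxidative stress genes, the list that holds Mt1 and Mt2, Mt1 was the 1 call by limma (background 0.115%). Calls by edgeR were 0 and by DESeq2 3, all lower. The list's median was -0.06, or -0.11 without WT 44 and 45 and -0.15 without NZM acute 5. By unadjusted p, 1 was higher and 4 lower (background 10.2% in either direction). Txn1, the antioxidant thioredoxin, rose by 0.94 ± 0.13 in WT (adjusted p = 1.79e-06) and had a response of 0.24 ± 0.12 in NZM (adjusted p = 0.176). Its interaction was -0.7 ± 0.18 (adjusted p = 0.117).

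Cd44, Prss22 and Krt7 rose more in WT skin. Cd44 encodes the receptor for hyaluronan on keratinocytes and leukocytes (chr2:102811141-102901665). In NZM it had 4439, 5703, 5930, 5989 and 6467 without UVB and 6472, 6691, 6801, 7680 and 8544 after it. WT skin had 2445, 2863, 2997 and 3642 without UVB and 5723, 6936, 6994, 7913 and 8183 after it. The unexposed strains did not overlap and the exposed ones did. The gap closed from 0.94 ± 0.13 to 0.02 ± 0.13, an interaction of -0.92 ± 0.18 (adjusted p = 0.0197), which held without WT 44 and 45 (-1.08, adjusted p = 0.0214).

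Prss22 encodes tryptase epsilon, a secreted serine protease of epithelia (chr17:23993534-23998100). It had 169, 218.5, 256, 256 and 357 in unexposed and 263, 283, 341.5, 365 and 490.5 in exposed NZM skin, which overlapped. Unexposed WT skin had 34.8, 45.5, 65 and 66.7 and exposed WT skin 168, 222, 246.5, 271 and 362. The gene rose by 2.24 ± 0.27 in WT (adjusted p = 7.72e-08), with a response of 0.48 ± 0.25 in NZM (adjusted p = 0.18). The interaction was -1.76 ± 0.36 (adjusted p = 0.0251), and -2.12 without WT 44 and 45 (adjusted p = 0.0234).

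Krt7, a keratin gene of simple and glandular epithelia (chr15:101411043-101430313), rose in both strains. It had 33.5, 37.1, 38.8, 42 and 64.8 in unexposed and 47.9, 88.5, 115, 141.5 and 235 in exposed NZM skin, against 20.1, 20.9, 23 and 33.6 without UVB and 235, 298, 326, 499 and 619 after it in WT. The lowest exposed WT library, at 235.3, lay just above the highest exposed NZM library, at 234.9. Krt7 rose by 1.37 ± 0.35 in NZM and by 3.9 ± 0.37 in WT (interaction -2.53 ± 0.51, adjusted p = 0.0215). That value was -2.39 without WT 44 and 45 (adjusted p = 0.184) and -2.47 in edgeR (adjusted p = 0.0538).

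Of 43 keratinocyte stress and alarmin genes, 32 rose in NZM (background 10.6%) and 29 in WT (background 10.4%), and 2 fell in each strain. None passed the interaction test by limma or edgeR, DESeq2 called 1, lower, and the median was 0.07. That median was -0.41 without WT 44 and 45, -0.65 in edgeR and -0.71 in DESeq2. By unadjusted p, 4 were higher and 5 lower (background 10.2% in either direction). Saa2, an acute-phase serum amyloid gene, had 0, 6.38, 12.8, 15.7 and 33.4 in exposed NZM skin and 53.7, 194, 229, 311.5 and 569.5 in exposed WT skin, while 7 of 9 unexposed libraries were at 0. The exposed strains did not overlap. Its interaction was -4.73 ± 1.08 in limma (adjusted p = 0.0584), and the adjusted p was 0.422 in edgeR and 0.18 in DESeq2. With unexposed skin near 0, the limma value depends on the 1 added before the log. Saa2 shares sequence with Saa1, so the split of reads between them is uncertain.

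Of 40 epidermal differentiation genes, 23 fell in NZM (background 10.7%) and 32 in WT (background 11.3%). Without UVB 8 were higher and 0 lower in NZM than in WT (background 7.47% higher and 7.49% lower), and after it 28 were higher and 0 lower (background 7.96% higher and 5.08% lower after UVB). In the interaction itself none passed by limma or edgeR and DESeq2 called 1, higher, while the median was 0.82 and 34 of 40 values lay above 0. Unadjusted p was under 0.05 in 7 (background 10.2%), all positive. The median was 1.17 without WT 44 and 45.

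Dsc1, which encodes desmocollin 1 of the junctions between upper keratinocytes, had 2095, 3221, 4369, 5263 and 8852 in exposed NZM skin and 539, 839, 1000, 1328 and 1469 in exposed WT skin. Unexposed skin had 1801, 2797, 5146, 5877 and 8813 in NZM and 4590, 5318, 5512 and 7600 in WT. The exposed strains were apart and the unexposed ones overlapped, and the interaction was 2.54 ± 0.77 (adjusted p = 0.205). Tgm3, a transglutaminase that cross-links the cornified envelope, fell by 2.96 ± 0.74 in WT, with a response of -0.02 ± 0.70 in NZM (interaction 2.95 ± 1.02, adjusted p = 0.302). NZM acute 5, the library with high hair follicle genes, had the highest Tgm3 value, 2104, against 105 to 920 in the other 4. Ivl, the envelope protein involucrin, had an interaction of 1.46 ± 0.52 (adjusted p = 0.311).

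Of 21 barrier lipid genes, 9 fell in WT (background 11.3%) and 4 in NZM (background 10.7%). No gene of that list passed the interaction by limma or edgeR, and DESeq2 called 1, higher. In limma 3 had an unadjusted p under 0.05 (background 10.2%), all higher, and the median was 0.52. Lipm, a lipase of the outer epidermis, had 1452, 1520, 1925, 2632 and 2737 in unexposed and 540.3, 697.5, 847, 889 and 1083 in exposed NZM skin. WT libraries stood at 1553, 1772, 2090 and 2939 without UVB and 199.8, 229, 252, 258.5 and 369 after it. Exposed WT libraries all lay below exposed NZM libraries, and the unexposed strains overlapped. It fell by 1.33 ± 0.27 in NZM and fell by 2.98 ± 0.28 in WT (interaction 1.66 ± 0.39, adjusted p = 0.0658). Sdr9c7, a dehydrogenase that acts on the ceramides of the skin barrier, had an interaction of 2.21 ± 0.64 (adjusted p = 0.193).

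The genes with a higher interaction included several that fell in WT alone. Hsd17b14 encodes a 17-beta-hydroxysteroid dehydrogenase that oxidizes steroids such as estradiol (chr7:45554893-45567752). NZM skin had 219, 245, 300.5, 352 and 391 without UVB and 274, 313, 373.5, 445 and 456 after it. WT skin had 94.5, 123, 179 and 193 without UVB and 25.4, 29.5, 31.1, 31.6 and 43.2 after it. NZM was above WT in both states without overlap, and WT fell while NZM overlapped. The fall in WT was 2.12 ± 0.27 (adjusted p = 3.16e-07), and the interaction of 2.43 ± 0.38 (adjusted p = 0.000844) passed in all 35 alternative settings.

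Fam111a encodes a nuclear protease that acts at stalled replication forks (chr19:12545740-12589768). Its values were 559, 631, 661, 663 and 815 in unexposed and 693, 711, 728, 945.5 and 1220 in exposed NZM skin, against 882, 1023, 1247 and 1321 without UVB and 306, 417, 454, 463 and 597 after it in WT. Unexposed WT was above unexposed NZM in every library, and exposed WT was below exposed NZM in every library. It fell by 1.33 ± 0.21 in WT (adjusted p = 6.95e-06), and the interaction was 1.68 ± 0.28 (adjusted p = 0.00377), which also passed in all 35 settings. Mpp7, a scaffold of cell junctions and polarity (chr18:7347959-7626866), fell by 1.82 ± 0.30 in WT, from 645, 702, 770.5 and 977 to 112, 206, 221, 301 and 306. In NZM it had 424, 438, 560.4, 588 and 619 without UVB and 347, 397, 691, 831 and 868.5 after it, which overlapped. Its interaction was 1.99 ± 0.41 (adjusted p = 0.0251), and 2.17 without WT 44 and 45 (adjusted p = 0.0952).

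Pitpnm3 and Emid1 rose in NZM alone. Pitpnm3 encodes a membrane-associated protein of the phosphatidylinositol transfer family (chr11:72047528-72135778). It had 55.2, 68.2, 79.4, 101 and 101 in unexposed and 193, 196, 229, 266 and 385 in exposed NZM skin, without overlap, and 58, 92.5, 104 and 124 without UVB and 49.4, 52, 72.5, 81.5 and 95.1 after it in WT, with overlap. It rose by 1.62 ± 0.27 in NZM (adjusted p = 3.07e-05), and the interaction was 2.04 ± 0.39 (adjusted p = 0.0127). That value was 1.82 without WT 44 and 45 (adjusted p = 0.176). Emid1, an extracellular matrix protein with an EMI domain (chr11:5106265-5152257), had 54.9, 59.1, 74.3, 74.5 and 86.7 without and 128, 165, 169.6, 175 and 248.5 with UVB in NZM. WT had 80.2, 83.6, 93.4 and 109.8 without UVB and 45.2, 59.6, 75.7, 85.6 and 133 after it. Emid1 rose by 1.32 ± 0.22 in NZM (adjusted p = 4.08e-05), and its interaction was 1.6 ± 0.32 (adjusted p = 0.0215). That value was 1.67 without WT 44 and 45 (adjusted p = 0.114) and 1.53 in edgeR (adjusted p = 0.0601).

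Qpct, L3hypdh and Tmem177 differed between unexposed strains and no longer passed a test of the difference after UVB. Qpct encodes glutaminyl cyclase, which caps peptides such as chemokines with pyroglutamate (chr17:79051906-79090378). NZM skin had 85.3, 99, 129.5, 144 and 146 without UVB and 153, 221, 228, 253 and 258 after it, without overlap. WT skin had 188, 349, 354 and 530 without UVB and 87.6, 112, 141, 167 and 204 after it, with overlap. Qpct rose by 0.89 ± 0.30 in NZM and fell by 1.28 ± 0.31 in WT. The interaction was 2.17 ± 0.43 (adjusted p = 0.0181), and 1.8 without WT 44 and 45 (adjusted p = 0.23). L3hypdh, a hydroxyproline dehydratase (chr12:72073428-72085439), rose from 85.3, 106, 111, 116 and 128 to 211, 216, 234, 254.5 and 265 in NZM. WT skin held 182, 275, 279 and 329 without UVB and 214, 232.5, 239.7, 240.1 and 289 after it, which overlapped with each other. Its interaction was 1.22 ± 0.26 (adjusted p = 0.028), and 1.0 without WT 44 and 45 (adjusted p = 0.293).

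Tmem177, a mitochondrial membrane protein in the assembly of cytochrome c oxidase, fell in NZM alone (chr1:119907890-119913208). It had 881, 886, 962, 988 and 1301 in unexposed and 187, 190, 212, 239.7 and 264 in exposed NZM skin, and 212, 220.1, 222 and 262 without UVB and 180.3, 180.5, 209.9, 229 and 237 after it in WT. Unexposed NZM skin stood alone, above every other library of the 4 groups. The strain difference went from 2.12 ± 0.22 (adjusted p = 1.79e-09) to 0.07 ± 0.21 (adjusted p = 0.87). The interaction of -2.04 ± 0.30 (adjusted p = 0.000454) passed in all 35 alternative settings, as did those of Hsd17b14 and Fam111a and of no other called gene.

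**Figure D4:**
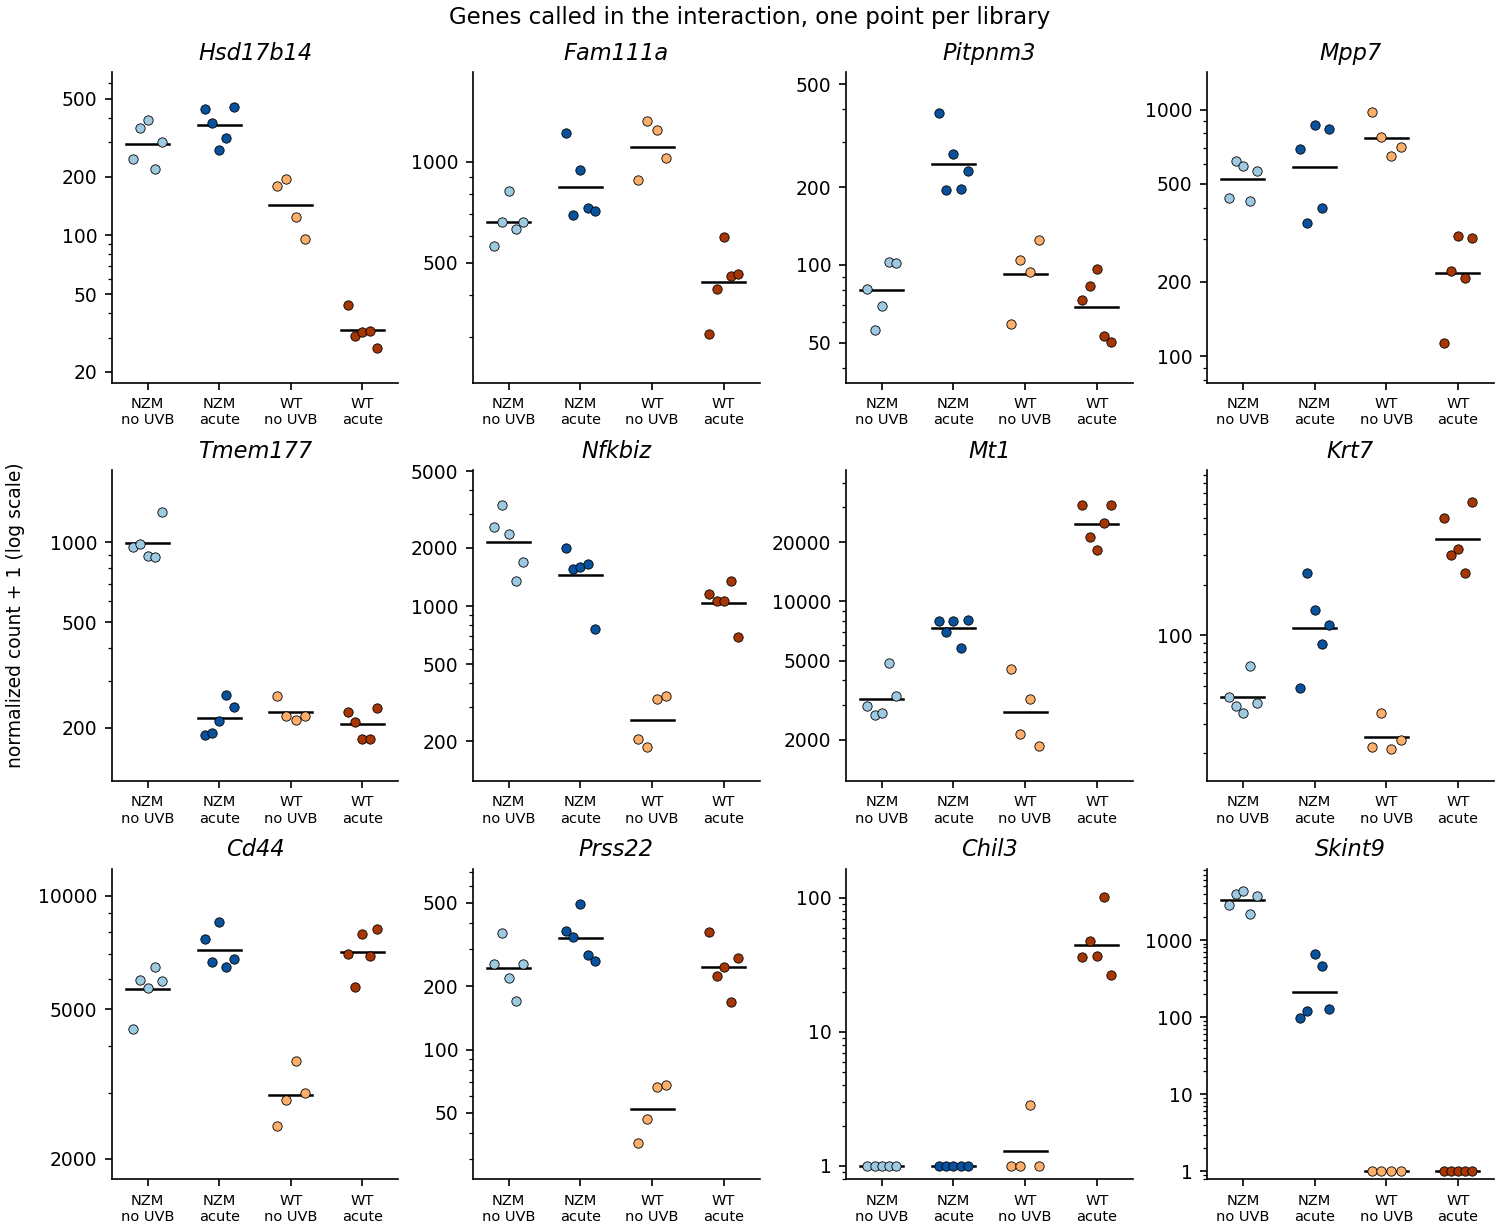
Normalized counts + 1 on a log scale for 12 of the 22 called genes, 1 point per library, with the mean of log2 values as a bar. Hsd17b14, Fam111a and Mpp7 fall in WT alone, Pitpnm3 rises and Tmem177 falls in NZM alone, and Mt1 and Krt7 rise in both strains and higher in WT.

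For 7 called genes 1 strain had almost no reads. Chil3 encodes Ym1, a chitinase-like protein of macrophages and neutrophils (chr3:106147554-106167564). It was at 0 in all 10 NZM libraries, where 0 reads allow up to 2.28 to 3.67 normalized counts per library. In WT it had 0, 0, 0 and 1.83 without UVB and 25.4, 35.1, 35.9, 46.8 and 99.8 after it. All 9 iNZM libraries of these states were at 0 as well. The interaction was -5.09 ± 0.51 (adjusted p = 7.44e-08), and neither edgeR nor DESeq2 called it (adjusted p = 1 and 0.131). With a group at 0, a log2 value depends on the 1 added before the log and bounds no fold. Chil3 was the 1 call among 19 inflammatory monocyte markers (background 0.115%).

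Skint4 and Skint9 belong to a family of butyrophilin-like genes of skin and thymus epithelium, whose member Skint1 is needed for epidermal gamma-delta T cells. Both lie on chromosome 4 (chr4:112072016-112168076 and chr4:112385969-112433985). Both were at 0 in all 9 WT libraries. Skint4 fell in NZM from 1838, 2343, 2776, 2800 and 2896 to 278, 387, 488, 506 and 578.5, without overlap. Skint9 fell from 2156, 2873, 3721, 3925 and 4266 to 95.7, 119, 127, 464 and 648, also without overlap. The interactions equal these NZM responses, -2.52 ± 0.45 (adjusted p = 0.00624) and -3.94 ± 0.75 (adjusted p = 0.0119), and are no measure of a WT response. Neither was called by edgeR or DESeq2. Without WT 44 and 45 the values were the same, -2.52 and -3.94, with adjusted p of 0.0552 and 0.102. The family members resemble each other, so counts of single members are uncertain.

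Of 22 genes in a list for epidermal gamma-delta T cells, 19 fell in NZM (background 10.7%) and 16 in WT (background 11.3%). The list holds Skint family genes of the epithelium beside T cell receptor genes, so these counts do not measure T cell genes alone. The list's 2 interaction calls (background 0.115%) were Skint4 and Skint9. Its median was -0.06, or 0.04 without WT 44 and 45 and 0.10 without NZM acute 5. Skint2, detected in both strains, fell by 2.13 ± 0.46 in NZM and fell by 3.64 ± 0.48 in WT (interaction 1.52 ± 0.66, adjusted p = 0.431). Trdc, the constant gene of the delta T cell receptor, fell by 2.98 ± 0.57 in NZM and fell by 2.6 ± 0.61 in WT (interaction -0.38 ± 0.84, adjusted p = 0.903).

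The other calls fell outside the naming rule and were chosen after their values were seen. Add2, which encodes beta-adducin of the membrane skeleton (chr6:86028681-86124409), had 30.2, 30.7, 31.8 and 33.7 in unexposed and 0, 0, 0.867, 2.91 and 3.06 in exposed WT skin. NZM had 4.67, 11.6, 12.2, 16.2 and 22.1 without UVB and 6.41, 11.8, 14.9, 15.2 and 42.9 after it. Its interaction was 4.35 ± 0.93 (adjusted p = 0.0306), lost in 18 of 35 settings. Of the clone-named models, RP24-168F5.3 fell in WT from 58, 62.7, 64.1 and 122 to 0, 3.06, 3.47, 4.67 and 4.85 and RP23-474L1.1 from 22.9, 34.2, 51.4 and 54.5 to 0, 0.867, 1.02, 2.83 and 3.88, with at most 7.86 in any NZM library of the first and 0 in all of the second. RP23-133I8.3 fell in NZM from 8.09, 11, 12.8, 40.2 and 41.7 to 0, 0, 0.76, 0.912 and 4.72, and the pseudogene Rpl31-ps15 from 41.5, 59, 59.1, 62.2 and 63 to 4.56, 5.61, 7.81, 9.12 and 9.43, with at most 2.04 in any WT library.

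Interferon genes gave no call in the interaction. Of 42 type I interferon-stimulated genes, none passed by limma, edgeR or DESeq2. Unadjusted p was under 0.05 in 2 (background 10.2%), both negative, and the median was -0.37. That median was -1.02 without WT 44 and 45, 0.07 without NZM acute 5 and -0.16 in edgeR. Isg15, a ubiquitin-like protein induced by interferon, had 143, 148, 392.5, 434 and 1605 in unexposed and 249, 284, 309.7, 324 and 485 in exposed NZM skin. The WT values were 151, 230.5, 453 and 669.8 without and 394, 662, 678.5, 680.1 and 931 with UVB. Exposed and unexposed libraries overlapped in both strains. Its interaction was -1.16 ± 0.84 (adjusted p = 0.671).

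Genes induced by interferon gamma and those of MHC class I had a median of -0.64, with 25 of 30 values below 0. Of the 30, 9 had an unadjusted p under 0.05 (background 10.2%), all negative. None passed by limma or edgeR, whereas DESeq2 called 2, both lower. Without NZM acute 5 the median was -0.43 and 11 lay above 0. Within NZM 6 of them fell (background 10.7%). Cxcl10, a chemokine induced by interferon gamma, had 78.2, 94.8, 122, 243 and 399 in unexposed and 28.9, 35.3, 60, 69.3 and 84.1 in exposed NZM skin. The WT libraries had 23.2, 26.6, 26.7 and 52.4 without and 45.6, 58.2, 62.1, 85 and 98.8 with UVB. It fell by 1.57 ± 0.54 in NZM (adjusted p = 0.0317), and the interaction was -2.69 ± 0.78 (adjusted p = 0.193).

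MHC class II genes went the other way, with all 10 interaction values above 0 and a median of 0.85. None passed by limma, edgeR or DESeq2, and none had an unadjusted p under 0.05. In WT 8 of the 10 fell (background 11.3%). Cd74, the invariant chain that escorts class II molecules, fell by 2.03 ± 0.58 in WT (adjusted p = 0.00954) and had a response of -1.05 ± 0.55 in NZM (adjusted p = 0.178), with an interaction of 0.98 ± 0.80 (adjusted p = 0.714).

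Proliferation genes were higher in exposed NZM than in exposed WT skin in 25 of 33 (background 7.96%), and without UVB in 3 of 33 (background 7.47%). The list's median log2 strain difference was 0.83 without UVB and 1.48 after it, against 0.01 and 0.02 over all genes. The list was thus shifted toward NZM before the dose as well. The interaction of these genes gave no call by limma, edgeR or DESeq2 and none at an unadjusted p under 0.05. All 33 values lay above 0, with a median of 0.49, which became 0.06 without WT 44 and 45, with 21 above 0, and 0.21 without NZM acute 5, with 31 above 0. NZM acute 5 had the highest summed level of these genes in its group, 65630 normalized counts, against a group median of 33450.

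Of 31 p53 targets, 13 rose in NZM (background 10.6%) and 14 in WT (background 10.4%). For the interaction 27 of 31 values lay below 0, and the median was -0.41 (-0.21 without NZM acute 5). Unadjusted p was under 0.05 in 8 (background 10.2%), all negative, and none passed by limma, edgeR or DESeq2. Bax, the pore-forming protein of apoptosis, had 419.7, 511, 615.5, 630.1 and 636 in exposed NZM skin and 719, 750.1, 791, 973 and 1208 in exposed WT skin, without overlap. It rose by 1.0 ± 0.16 in NZM and by 1.8 ± 0.18 in WT, and the strains differed after UVB by -0.65 ± 0.16 (adjusted p = 0.00585). The interaction was -0.8 ± 0.24 (adjusted p = 0.205). Cdkn1a, the cell-cycle inhibitor p21, rose by 1.04 ± 0.22 and by 1.73 ± 0.23 (interaction -0.68 ± 0.31, adjusted p = 0.455). Xpc, a sensor of DNA lesions in nucleotide excision repair, fell by 0.9 ± 0.10 in NZM and fell by 0.48 ± 0.11 in WT (interaction -0.42 ± 0.15, adjusted p = 0.311).

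Dermal macrophage, complement and fibroblast genes had high list medians, which were lower without WT 44 and 45. The median interaction was 2.04 over 20 dermal macrophage markers, 1.59 over 20 complement and coagulation genes and 1.37 over 22 fibroblast and matrix genes. Without WT 44 and 45 the medians were 0.60, 0.46 and 0.69. None of these genes passed by limma, edgeR or DESeq2. By unadjusted p, 2, 4 and 11 were higher and 0, 0 and 1 lower (background 10.2% in either direction). Mrc1, the mannose receptor of dermal macrophages, had 308, 314, 386, 479.9 and 551 in unexposed and 621, 1816, 3098, 3259 and 3697 in exposed NZM skin. WT skin stood at 834.5, 889, 6656 and 7499 without UVB, with 44 and 45 the higher pair, and 811, 1978, 3103, 4836 and 9598 after it. Its interaction was 2.14 ± 1.12 (adjusted p = 0.518) and 0.62 without that pair.

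Col1a1, a chain of type I collagen, had 2345, 2858, 3075, 7739 and 11420 in unexposed and 6410, 9886, 10010, 12430 and 18500 in exposed NZM skin, against 11820, 19370, 41580 and 42310 without UVB and 2747, 5675, 12940, 14520 and 14900 after it in WT. Its interaction was 2.84 ± 0.90 (adjusted p = 0.251) and 2.1 without WT 44 and 45. Inflammatory monocyte markers had a median of 0.61, which became -0.41 without them. Mitochondrial transcripts had 10 of 10 values below 0 and a median of -1.24, or -0.49 without WT 44 and 45. No call was made by limma, edgeR or DESeq2, and 2 passed unadjusted (background 10.2%), both negative. The part of the 2 libraries' makeup in the called genes was not tested beyond leaving them out.

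**Figure D5:**
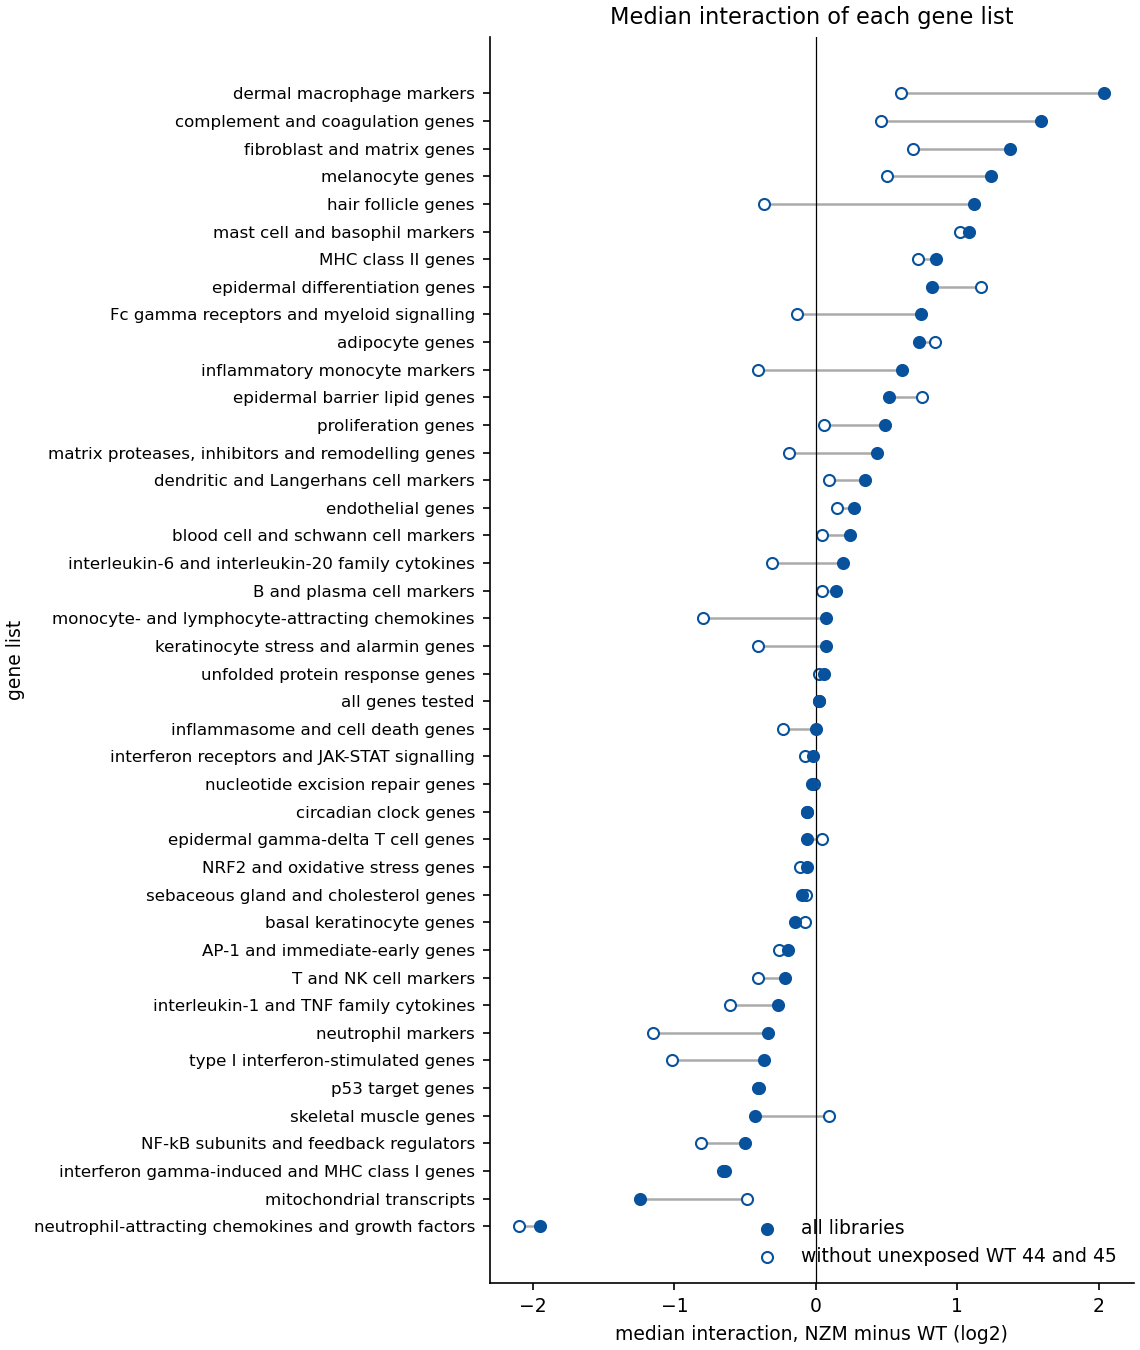
Median interaction (x axis, log2) of each of 41 gene lists and of all genes tested, with all libraries (filled points) and without unexposed WT 44 and 45 (open points). Dermal macrophage, complement and fibroblast lists move toward 0 without the pair, from 2.04, 1.59 and 1.37 to 0.60, 0.46 and 0.69, while the neutrophil-attracting chemokines stay near -2, at -1.95 and -2.10.

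The contrast of iNZM with WT uses the same WT libraries, so its values are set side by side and add no independent support. Its log2 interaction, the iNZM response minus the WT response, was 2.81 ± 0.39 for Hsd17b14, 1.86 ± 0.29 for Fam111a, -1.8 ± 0.31 for Tmem177, -3.04 ± 0.46 for Nfkbiz, -0.91 ± 0.19 for Cd44 and -5.09 ± 0.52 for Chil3. For Mt1 it was -1.32 ± 0.43 (adjusted p = 0.195), with 5703, 7023, 7329, 8880 and 14550 in exposed iNZM skin. Exposed iNZM libraries 6 and 49 were high in hair follicle genes, as was NZM acute 5. The mean log2 level of these genes, centred over all 43 libraries, was 7.43, 7.07 and 7.44. In exposed iNZM 9, 10 and 48 it was -3.26 to -2.4. The test of NZM against iNZM responses themselves called 1 of 19170 genes (0.00522%), the clone-named RP24-208K8.1, which is none of the 22. For Skint9, whose NZM and iNZM responses were -3.94 ± 0.51 and -5.98, that difference was 2.04 ± 0.75 (adjusted p = 0.778).

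The strain difference after acute UVB was also tested against that after chronic UVB, where the unexposed libraries cancel. That test called 558 genes (2.91%). Hair follicle genes differed between the chronic groups. Their centred mean log2 level was 6.93, 2.03, 7.86 and 7.51 in NZM chronic 17, 18, 55 and 56 and -2.65 in 54. In WT chronic libraries it was -3.1 to -0.98. With that level as covariate the count became 3353, and with only samples numbered under 46 it became 3. The part of hair growth in these values was not tested. Values for genes of the interaction were 1.6 ± 0.28 for Fam111a (adjusted p = 0.000854), 2.24 ± 0.38 for Pitpnm3 (0.000759), -1.23 ± 0.29 for Tmem177 (0.0141), -1.49 ± 0.41 for Slc30a2 (0.0364) and -1.43 ± 0.41 for Mt1 (0.0458). For Cd44 and Nfkbiz they were 0.33 ± 0.18 (adjusted p = 0.371) and 0.28 ± 0.43 (0.803). The exposed NZM and WT libraries are shared with the interaction, so these are values side by side and no independent support.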

How the data were processed

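The values used were the deposited normalized counts, a signal equal to the number of reads per gene divided by a library size factor, made by the authors with STAR, HTSeq and DESeq2 on mm10, per the submitters' processing notes. Versions, annotation and strand setting are not given in the sources used here. Dividing by the smallest step gave back the deposited read counts as whole numbers within 0.01 for 100% of values, and depth is the sum of these. Main tests used limma 3.58.1 (R 4.3.3), trend option, with the logged values (log2 after adding 1) and a mean for each of 9 groups fitted to all 43 libraries and Benjamini-Hochberg adjustment over 19170 genes. edgeR 4.0.16 (quasi-likelihood) and DESeq2 1.42.0 on the recovered reads were alternatives, beside other scalings, pseudocounts, filters, weights, covariates and sample subsets. The test was checked on simulated data. No replicate pair differed by less than sampling noise (lowest chi-square 16.9 per gene). Members, gene lists and tests were chosen with earlier results of these data known. Named genes were the called genes with a mean of at least 100 in 1 group, clone-named and predicted models left out, up to 4 list members with the smallest p, other called list members, and 48 listed genes. Positions come from GENCODE vM21 on GRCm38, and 19 of the 22 called genes had a single one.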

Additional observations from a re-analysis of the deposited data

Results flagged for a closer look

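The interaction, a test of the difference between the NZM and WT responses itself, passed for 22 genes. In 4 of them WT, and in 3 NZM, stayed under 10 normalized counts in every library. For those the value is nearly the response of the other strain alone and does not show that both strains respond differently. The higher interactions were 5.26 for RP24-168F5.3, 4.35 for Add2, 4.08 for RP23-474L1.1, 2.43 for Hsd17b14, 2.17 for Qpct, 2.04 for Pitpnm3, 1.99 for Mpp7, 1.68 for Fam111a, 1.60 for Emid1 and 1.22 for L3hypdh. The lower ones were -5.09 for Chil3, -3.99 for RP23-133I8.3, -3.94 for Skint9, -3.21 for Rpl31-ps15, -2.59 for Nfkbiz, -2.53 for Krt7, -2.52 for Skint4, -2.04 for Tmem177, -2.0 for Slc30a2, -1.99 for Mt1, -1.76 for Prss22 and -0.92 for Cd44, all on the log2 scale.

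In 14 of 208 pairs of a gene and a group, 1 library stood far from the others of its group, where chance gives about 1 in 20, or 10.4. Lower than their group were Nfkbiz in NZM acute 5 (762.7 normalized counts), Rpl31-ps15 in unexposed NZM 34 (41.55), RP24-168F5.3 in WT acute 15 (0), Cxcr2 in unexposed NZM 31 (29.18) and Ccl20 in WT acute 50 (66.61). Higher were RP24-168F5.3 in unexposed WT 43 (121.7), Nfkbia in unexposed WT 41 (11220), Ivl in unexposed WT 43 (1755), Cxcl10 in unexposed WT 45 (52.44) and S100a9 in WT acute 52 (3409). In groups otherwise at 0, Chil3 had 1.831 in unexposed WT 44, Saa2 had 3.012 in unexposed NZM 32 and 0.9155 in unexposed WT 44, and Csf3 had 1.004 in unexposed NZM 32.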

How the results depend on the processing

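No paired analysis was possible because the groups compared share no sample numbers. Of the 22 called genes, 3 (Hsd17b14, Fam111a and Tmem177) passed under every alternative run and none changed sign. Of up to 35 settings, the call was lost in 18 for Add2, 13 for Mt1 and L3hypdh, 12 for Slc30a2, 11 for Mpp7 and Prss22, 9 for Emid1, 8 for Krt7, 6 for Rpl31-ps15, 5 for Skint9 and RP23-133I8.3, 4 for Cd44, 3 for Pitpnm3, Qpct, Skint4 and RP23-474L1.1, 2 for Chil3 and 1 for Nfkbiz and RP24-168F5.3. The count of 22 became 70 with a pseudocount of 8, 50 with only the compared groups, 89 with a hair follicle score as covariate, 274 with sample quality weights, 9 with edgeR, 207 with DESeq2, 8 at a threshold of 0.01 and 9 without unexposed WT 44 and 45. With only samples numbered under 46 the count was also 22, but only 11 of these were among the main 22. Leaving out single libraries gave 13 (without unexposed WT 45) to 41 (without WT acute 52). The NZM response became 7784 genes with weights, 2343 at 0.01 and 3118 to 4057 leaving out 1 library, and the WT response 2631 at 0.01 and 3258 to 4150. The unexposed strain difference became 4457 with weights, 1510 at 0.01, 1197 without WT 44 and 45 and 1662 (without WT 45) to 2743. The difference after UVB became 699 with samples numbered under 46, 5843 with weights, 1410 at 0.01 and 1696 to 2566. The iNZM minus WT interaction, 71 genes, became 113 with pseudocount 8, 28 with the compared groups, 21 with samples under 46, 115 with the hair covariate, 157 with weights, 46 with edgeR, 397 with DESeq2, 16 at 0.01 and 32 to 174. The NZM minus iNZM count of 1 became 0 with a filter at 50, the compared groups, samples under 46, weights, edgeR and 0.01, 5 with DESeq2, and 0 to 1 leaving out a library. Acute minus chronic, 558 genes, became 3 with samples under 46, 3353 with the hair covariate, 2647 with weights, 1035 with DESeq2, 156 at 0.01 and 289 to 734. Trdc, at -0.38, went from -1.14 (without WT acute 50) to 0.03 (without unexposed WT 41, reversed). The cause of these shifts was not tested. Genes with few reads, such as Chil3 and the clone-named models, are limited by depth.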

Other observations

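Per1, a repressor of the circadian clock, had 2180, 2820, 3081, 3438 and 3456 normalized counts in unexposed and 733, 807, 902, 1612 and 1736 in exposed NZM skin, and 1813, 2237, 2669 and 2676 without UVB and 1777, 2209, 2212, 2279 and 2797 after it in WT. Every exposed NZM library lay below every exposed WT library, whereas the unexposed strains overlapped. It fell by 1.45 ± 0.27 in NZM (adjusted p = 0.000176), its WT response was -0.06 ± 0.29 (adjusted p = 0.93), and the interaction was -1.39 ± 0.40 (limma, adjusted p = 0.183). Ddit4, a stress-induced inhibitor of mTOR signalling, fell by 0.84 ± 0.26 in NZM (adjusted p = 0.0163), with a WT response of 0.37 ± 0.27 (adjusted p = 0.372) and an interaction of -1.21 ± 0.38 (adjusted p = 0.225).

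Ccl20, the chemokine that draws cells bearing CCR6, had 145, 215, 341, 363 and 531 in unexposed and 253, 272.5, 368, 560.4 and 582 in exposed NZM skin, which overlapped. In WT it had 6.96, 11.9, 15.8 and 19.1 without UVB and 66.6, 162, 165, 189 and 208 after it. NZM lay above WT in both states. Ccl20 rose by 3.45 ± 0.64 in WT (adjusted p = 9.65e-05), and its interaction was -3.05 ± 0.88 (adjusted p = 0.183). Of 18 adipocyte genes, 8 had a positive interaction at an unadjusted p under 0.05 (background 10.2% in either direction). The list median was 0.73, and none passed by limma, edgeR or DESeq2.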
